A study of Mus musculus with 18 samples.

Results

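Liver RNA from 3 samples of mice on a high-fat diet that received vehicle was compared with liver RNA from 3 chow control samples of the same reversal model. These 6 arrays were picked by their labels alone, from 18 arrays in 6 groups of 3, and no measured value entered the choice. All samples were liver of wild-type CD1 mice, an outbred strain, profiled on Affymetrix mouse expression arrays from 200 ng of RNA. The high-fat diet drew 60% of its energy from fat. In the reversal model the diet lasted 6 weeks, and injections of vehicle or of CMPF, a furan fatty acid metabolite, followed for 2 weeks until the liver was taken. The high-fat diet samples described here are the vehicle-injected controls of the CMPF arm. The labels call the chow samples controls; they do not say whether chow mice were injected, whether the high-fat diet went on during the injections, or what sex and age the mice were. They also do not say that each array came from a separate animal, so p-values here measure the spread between samples only. That spread was estimated over all 6 groups of the series, on 17 samples.

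A diet rich in fat loads the liver with fatty acids, which hepatocytes take up, esterify and store as triglyceride in lipid droplets. PPARγ, a fatty acid sensing nuclear receptor that is scarce in lean liver, drives uptake and storage genes such as Cd36 and Mogat1 in fatty liver. SREBP-1c and LXRα control fatty acid synthesis, and SREBP-2 controls cholesterol synthesis, rising when sterol in the endoplasmic reticulum is low. Mouse liver also holds sets of genes with sex-biased expression set by growth hormone pulses, genes confined to the pericentral or the periportal zone, and genes under the circadian clock.

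Values are deposited log2 signals normalised by RMA, so a difference of 1 is a doubling of signal, and levels of different genes are not compared with each other. The brightest probe set of a gene stands for it, and 13221 genes remained after the dimmest 40% of probe sets were dropped. Fold changes are log2 high-fat diet minus chow, given with the standard error of a limma model. Genes are said to have risen or fallen where the Benjamini-Hochberg adjusted p over all genes tested was under 0.05. The median fold change of all genes was 0.03.

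The tissue label was checked first. The summed linear signal of 10 hepatocyte identity genes, among them Alb and Ttr, lay between 63190 and 67060 on chow and between 63370 and 67910 on the high-fat diet, and none of the 10 passed the test. Eif2s3y, a Y-linked gene, read between 8.92 and 9.24 on the 6 arrays, and Xist, which is transcribed from the inactive X chromosome, between 4.43 and 5.25, so both groups carried male transcripts. Array chow 2 stood apart from the others. Its median correlation with the other arrays of the model was 0.948, against 0.977 to 0.984 for the rest, and between 850 and 1120 genes differed more than 2-fold between it and the other chow arrays, which differed from each other in 132. The 3′ minus 5′ signal of the Gapdh and Actb control probes, a sign of RNA integrity, was 2.62 ± 0.969 (SD, n = 3) on the high-fat diet and 3.15 ± 0.566 on chow (exact two-sided permutation p = 0.6, the smallest possible being 0.1). Array HFD 1 had the lowest value of the 6, 1.55.

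The high-fat diet raised 287 genes and lowered 37. Of the 13221 genes, 2.17% were raised and 0.28% lowered, 2.45% in all. The counts of raised and lowered genes in each list below read against these shares. The change was more than 2-fold for 108 of the raised genes and 6 of the lowered ones. Chow and high-fat arrays did not overlap for any of the 324 called genes. That count reads against 3078 genes, 23.3% of those tested, whose groups did not overlap (1942 higher, 14.7%, and 1136 lower, 8.59%, on the high-fat diet). Where a raised gene had another probe set past the filter (122 genes), every other probe set was also higher on the high-fat diet for 93, and for the lowered genes this held for 18 of 18.

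**Figure D1:**
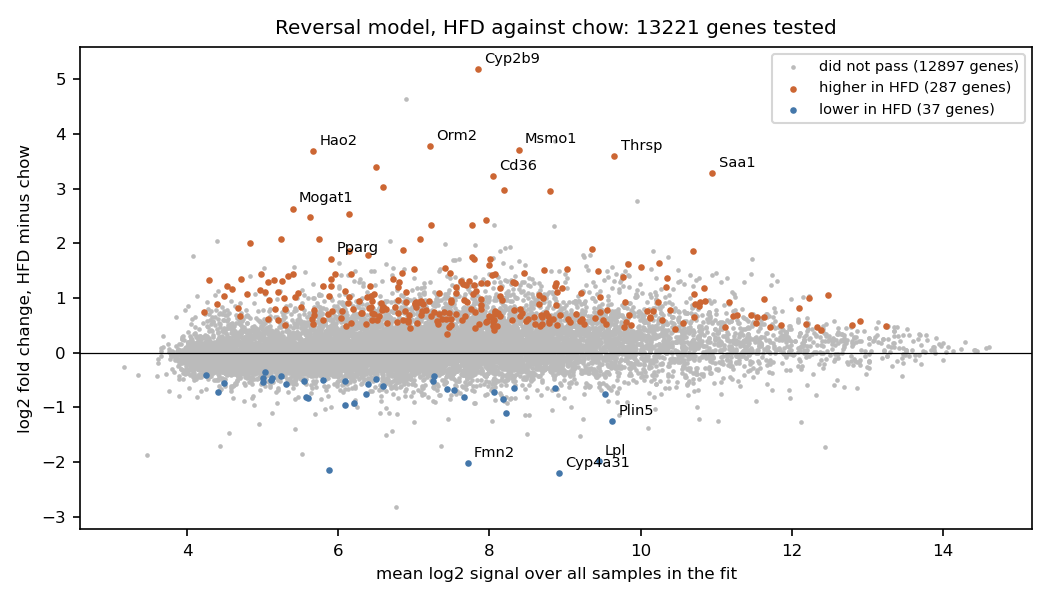
Each point is 1 of 13221 genes, with the mean log2 signal on the horizontal axis and the log2 fold change (high-fat diet minus chow) on the vertical axis. Orange points are the 287 raised genes and blue points the 37 lowered genes at an adjusted p under 0.05; Cyp2b9 lies highest at 5.19.

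These calls borrow the spread of all 17 samples of the series. In a fit of the 9 reversal arrays 38 genes passed (36 of them among the 324), and in a fit of the 6 arrays alone none did, although 2054 genes had an unadjusted p under 0.05 there. Leaving out 1 of the 6 arrays gave 99 (without HFD 1) to 577 (without chow 1) called genes, with 135 without chow 2, 195 without chow 3, 154 without HFD 2 and 142 without HFD 3. Of the 324, 60 passed in all 6 of these fits. The 287 raised genes were 88.6% of the calls; after a further quantile normalization 155 rose and 86 fell, 64.3% raised, and after cyclic loess 187 rose and 76 fell, 71.1% raised. For single genes below, the number of leave-one-out fits in which the gene still passed is given as fits.

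**Figure D2:**
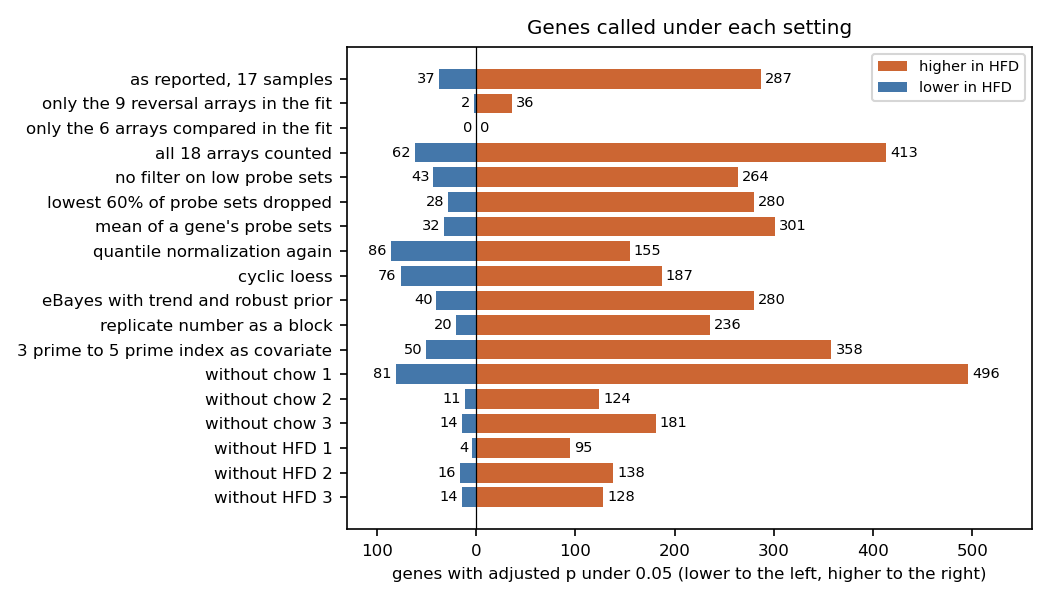
Horizontal bars give the number of genes at an adjusted p under 0.05 that were higher (orange, to the right) or lower (blue, to the left) on the high-fat diet, for the fit as reported and for each other setting. The counts run from none in the fit of 6 arrays to 496 raised and 81 lowered without chow 1.

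Fatty acid uptake and storage genes held some of the steadiest changes. Pparg, the nuclear receptor, read 4.64, 5.34 and 5.14 on the chow arrays and 6.73, 6.71 and 6.84 on the high-fat diet arrays. Each high-fat array lay above all chow arrays, and the mean was 3.29-fold higher (1.72 ± 0.18, adjusted p = 0.000765); it passed in 6 of 6 leave-one-out fits. Cd36, the fatty acid translocase of the plasma membrane, read 6.96, 5.98 and 6.35 on the chow arrays and 9.54, 8.99 and 10.44 on the high-fat diet arrays, a 9.35-fold rise (3.22 ± 0.51, adjusted p = 0.00751), and passed in 6 of 6. Mogat1, which makes diacylglycerol from monoacylglycerol, read 4.41, 3.98 and 3.84 on the chow arrays and 6.39, 6.41 and 7.34 on the high-fat diet arrays. It rose 6.22-fold (2.64 ± 0.29, adjusted p = 0.000765) and passed in 6 of 6. In all of these genes the lowest high-fat array lay well above the highest chow array.

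Other genes of these routes mostly stayed below the threshold. Of 13 triglyceride synthesis genes tested, 2 rose and none fell, with a median of 0.07; the other riser was Dgat2, which adds the last acyl chain (0.46 ± 0.11, adjusted p = 0.0488), and it passed in 0 of 6 leave-one-out fits. Of 17 genes of fatty acid uptake, binding and activation, Cd36 alone rose and Lpl alone fell (median 0.31). Lpl, the lipase that frees fatty acids from circulating lipoproteins, read 10.57, 9.65 and 11.08 on the chow arrays and 9.33, 8.22 and 7.82 on the high-fat diet arrays. The lowest chow array and the highest high-fat array were close, and Lpl fell by 1.98 (adjusted p = 0.0306), passing in 3 of 6. Among 16 lipid droplet and lipolysis genes, Fitm1, which promotes droplet formation, rose and Plin5, a droplet coat protein of oxidative tissues, fell. Fitm1 read 7.61 to 8.92 on chow and 9.33 to 10.02 on high-fat diet (1.54 ± 0.34, adjusted p = 0.0334), and Plin5 read 9.98 to 10.74 on chow and 8.61 to 9.44 on high-fat diet (fall of 1.26, adjusted p = 0.0496). Fitm1 passed in 2 of 6 and Plin5 in 1 of 6 of the leave-one-out fits, and Plin5 did not pass with the RNA integrity index as a covariate (adjusted p = 0.059).

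Of 14 lipid-sensing nuclear receptors and coregulators, Pparg and Nr1h3 rose and none fell. Nr1h3, which encodes LXRα, read 7.15 to 7.27 on chow and 7.59 to 7.93 on high-fat diet (0.61 ± 0.13, adjusted p = 0.0242) and passed in 3 of 6. Ppara, the receptor that drives fatty acid oxidation, read 10.97, 10.32 and 10.59 on the chow arrays and 11.06, 10.46 and 10.66 on the high-fat diet arrays, overlapping throughout (0.10 ± 0.21, adjusted p = 0.809). Fgf21, a fasting hormone made by liver, read 7.30, 7.29 and 6.06 on the chow arrays and 6.19, 5.89 and 6.58 on the high-fat diet arrays and did not pass (-0.66 ± 0.43, adjusted p = 0.372).

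Fatty acid synthesis genes did not move as a block. Of 17 tested, 4 rose (Thrsp, Aacs, Fasn and Nr1h3) and none fell, with a median of 0.33, against 2.17% of all genes raised. Thrsp, a nuclear protein that promotes lipogenesis, read 7.38, 8.60 and 7.60 on the chow arrays and 11.20, 10.97 and 12.18 on the high-fat diet arrays, 12.1-fold higher (3.59 ± 0.40, adjusted p = 0.000765). Its other probe sets past the filter gave 0.12 and 3.86, and the mean of its probe sets 2.52. Thrsp passed in 6 of 6. Fasn, fatty acid synthase, read 7.51, 6.93 and 7.28 on the chow arrays and 8.13, 8.0 and 8.82 on the high-fat diet arrays. The groups were apart but near, and the rise was 2.11-fold (1.08 ± 0.26, adjusted p = 0.0469), passing in 1 of 6. Aacs, which activates acetoacetate for lipid synthesis, rose by 1.23 ± 0.28, adjusted p = 0.0376, and passed in 1 of 6. The acetyl-CoA carboxylases gave -0.14 for Acaca (adjusted p = 0.556) and -0.09 for Acacb (adjusted p = 0.89). Scd1, stearoyl-CoA desaturase, read 13.69, 12.87 and 12.97 on the chow arrays and 12.44, 11.90 and 14.02 on the high-fat diet arrays, so that HFD 3 was the highest array of the 6 and HFD 2 the lowest. Srebf1, which encodes SREBP-1, was higher on all 3 high-fat arrays, at 9.62, 9.0 and 10.16 against 8.84, 8.85 and 8.42, without passing (0.89 ± 0.33, adjusted p = 0.152). The count of raised fatty acid synthesis genes was 1 without chow 2, HFD 1 or HFD 2.

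**Figure D3:**
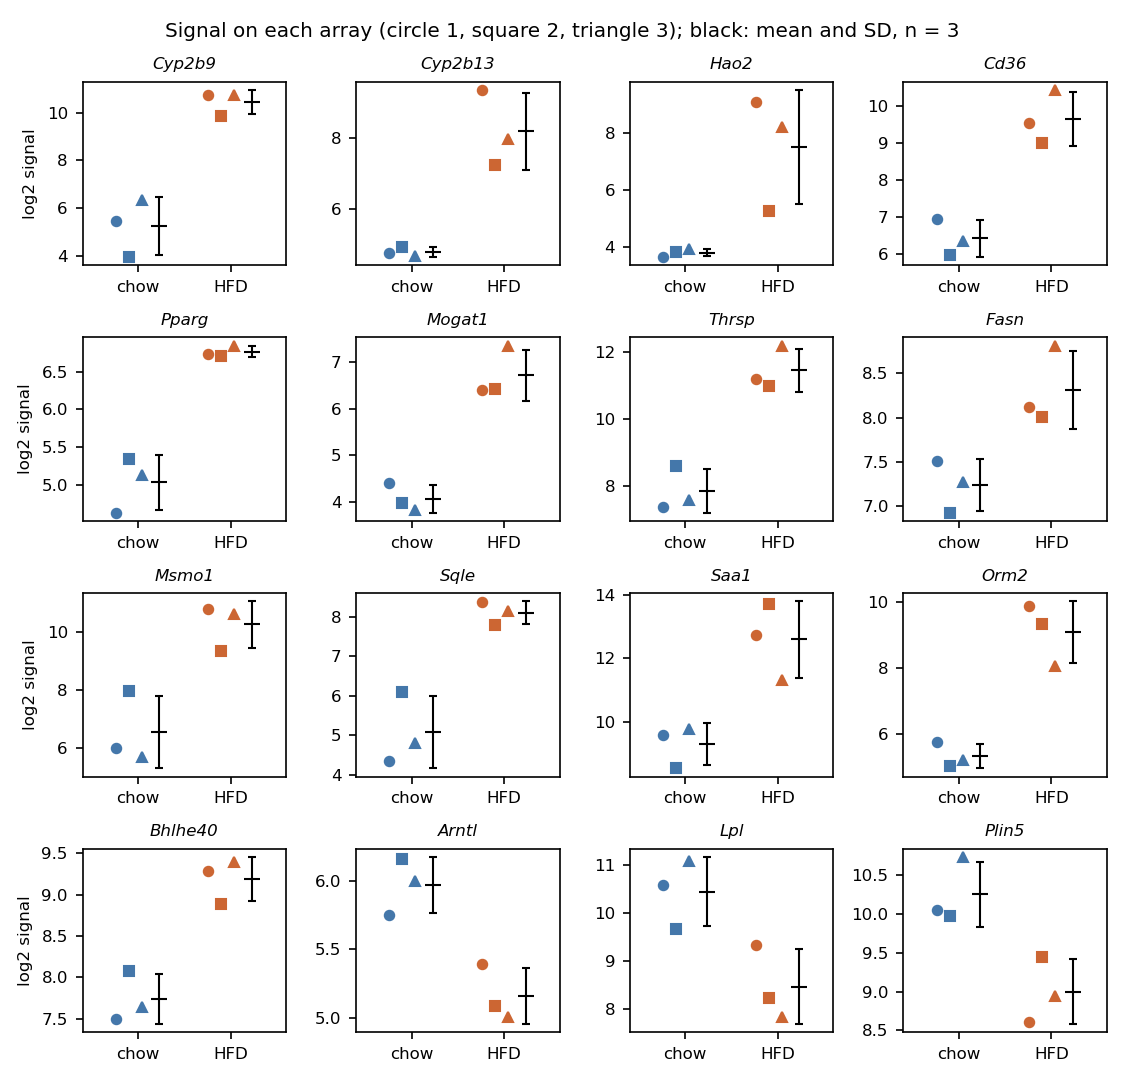
Log2 signal of 16 genes on each of the 6 arrays (blue chow, orange high-fat diet; circle, square and triangle are replicates 1, 2 and 3), with the mean and SD of 3 arrays in black. Vertical axes differ between panels and do not start at 0; in all 16 genes the groups do not overlap.

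Cholesterol synthesis enzymes were higher on the high-fat diet along most of the pathway. Of 17 enzymes tested, 5 rose (Fdps, Sqle, Cyp51, Msmo1 and Nsdhl) and none fell, and their median fold change was 0.92. The groups did not overlap, with the high-fat diet higher, for 14 of the 17, against that 14.7% of all genes. Msmo1, which removes the C4 methyl groups of sterol intermediates, read 5.97, 7.96 and 5.66 on the chow arrays and 10.80, 9.33 and 10.62 on the high-fat diet arrays. It was 13.2-fold higher (3.72 ± 0.68, adjusted p = 0.0153) and passed in 4 of 6 leave-one-out fits. Sqle, squalene epoxidase, read 4.34, 6.10 and 4.79 on the chow arrays and 8.37, 7.79 and 8.14 on the high-fat diet arrays, 8.16-fold higher (3.03 ± 0.62, adjusted p = 0.0227), and passed in 2 of 6. In both genes chow 2 was the highest of the chow arrays. Fdps, which makes farnesyl pyrophosphate, read 4.38, 4.98 and 3.78 on the chow arrays and 7.46, 6.05 and 7.08 on the high-fat diet arrays (2.48 ± 0.56, adjusted p = 0.0354; 2 of 6 fits). Cyp51, lanosterol demethylase, read 5.37, 7.11 and 5.70 on the chow arrays and 8.14, 8.45 and 8.58 on the high-fat diet arrays (2.33 ± 0.50, adjusted p = 0.0284; 1 of 6 fits). Nsdhl, a dehydrogenase of the same demethylation step, read 6.83, 7.61 and 6.25 on the chow arrays and 8.54, 8.23 and 9.15 on the high-fat diet arrays (1.74 ± 0.34, adjusted p = 0.0201; 3 of 6 fits). Among the 12 that did not pass, values ran from -0.25 for Hsd17b7 to 1.75 for Idi1 (adjusted p = 0.0988). The count of raised enzymes fell to 0 without HFD 1 and without HFD 3, was at most 4 when any array was left out, and was 7 with the RNA integrity index as a covariate.

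**Figure D4:**
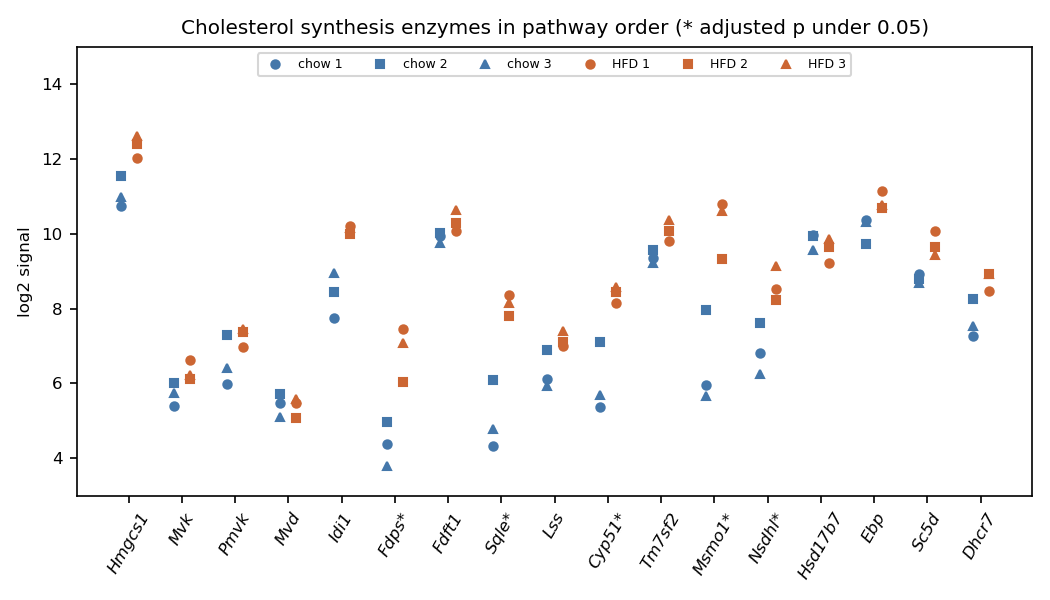
Log2 signal of the 17 cholesterol synthesis enzymes tested, in pathway order, on each of the 3 chow (blue) and 3 high-fat diet (orange) arrays; marker shapes give the replicate and asterisks the 5 enzymes with an adjusted p under 0.05. Levels of different enzymes are not comparable, since each is read by its own probe set.

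Of 13 genes of SREBP control, cholesterol uptake and export, 2 rose and none fell, and the median of 0.07 turned negative under quantile (-0.08) and cyclic loess (-0.07) normalization. Insig1, an SREBP target that retains SREBPs in the endoplasmic reticulum, read 8.69, 9.51 and 8.86 on the chow arrays and 10.58, 10.24 and 11.10 on the high-fat diet arrays (1.62 ± 0.37, adjusted p = 0.0383) and passed in 1 of 6. Stard4, a carrier of cholesterol between membranes, read 8.03 to 8.64 on chow and 9.25 to 9.89 on high-fat diet (1.18 ± 0.28, adjusted p = 0.0448) and passed in 0 of 6. Leaving out any of the 6 arrays but chow 2, which left 1, left no raised gene in this list.

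The promoters of the genes that moved together are shown because SREBPs act through short elements near the start site, often beside CCAAT boxes bound by NF-Y. RefSeq promoter windows of GRCm38.p6 were found for 24 of the 30 cholesterol genes tested and for 4 of the 7 that rose; the windows shown are the 250 bases before the start. The windows of these 4 and of Hmgcs1, which encodes HMG-CoA synthase, follow, 5′ to 3′ on the gene's strand. Capitals mark the sterol element TCACNCCAC and the CCAAT box, each on either strand (reverse complements GTGGNGTGA and ATTGG).
Msmo1, chr8:64733579-64733828, minus strand: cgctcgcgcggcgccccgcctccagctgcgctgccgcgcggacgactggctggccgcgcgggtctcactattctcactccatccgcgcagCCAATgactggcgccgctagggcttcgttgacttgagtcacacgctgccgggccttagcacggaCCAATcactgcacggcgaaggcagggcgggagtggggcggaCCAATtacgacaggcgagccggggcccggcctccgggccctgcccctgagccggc
Cyp51, chr5:4104698-4104947, minus strand: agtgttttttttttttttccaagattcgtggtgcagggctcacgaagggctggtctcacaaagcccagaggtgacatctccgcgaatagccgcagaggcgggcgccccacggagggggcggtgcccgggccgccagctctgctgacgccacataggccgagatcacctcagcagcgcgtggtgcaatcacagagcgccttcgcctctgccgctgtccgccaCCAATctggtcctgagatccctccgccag
Nsdhl, chrX:72918271-72918520, plus strand: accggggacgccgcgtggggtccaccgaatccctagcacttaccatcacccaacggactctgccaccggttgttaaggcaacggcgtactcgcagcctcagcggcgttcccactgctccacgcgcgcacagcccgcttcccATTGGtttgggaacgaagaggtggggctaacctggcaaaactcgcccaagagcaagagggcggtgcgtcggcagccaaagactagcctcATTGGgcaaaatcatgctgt
Insig1, chr5:28071162-28071411, plus strand: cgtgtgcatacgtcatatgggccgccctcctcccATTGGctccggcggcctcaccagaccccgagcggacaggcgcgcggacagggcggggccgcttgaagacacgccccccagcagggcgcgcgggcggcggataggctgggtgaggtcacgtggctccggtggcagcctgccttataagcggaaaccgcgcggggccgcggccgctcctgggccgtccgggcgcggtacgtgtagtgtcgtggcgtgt
Hmgcs1, chr13:119690101-119690350, plus strand: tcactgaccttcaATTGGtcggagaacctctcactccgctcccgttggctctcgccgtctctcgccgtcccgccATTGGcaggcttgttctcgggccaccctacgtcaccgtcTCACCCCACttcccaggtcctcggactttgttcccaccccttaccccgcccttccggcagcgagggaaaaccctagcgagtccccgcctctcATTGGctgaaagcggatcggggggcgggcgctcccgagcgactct
Counting the base before the start as -1, the first bases of the CCAAT matches lay at -160, -96 and -55 in Msmo1, at -29 in Cyp51, at -109 and -20 in Nsdhl and at -216 in Insig1. A CCAAT box stood in at least 1 window of 21 of the 24 genes; over all 32851 windows of that length the share was 33.8%, counted by window and not by gene. The sterol element was found in Hmgcs1 alone, at -137, and in 1.05% of all windows. Hmgcs1 signal read 10.76 to 11.56 on chow and 12.03 to 12.61 on high-fat diet and did not pass (1.24 ± 0.41, adjusted p = 0.108). A match is a description of the letters in the window.

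Oxidation of fatty acids showed no called change. Of 20 mitochondrial oxidation and ketogenesis genes and 17 peroxisomal ones, none passed (medians 0.29 and 0.00); at this size of comparison a smaller change cannot be told from none. Cpt1a, which admits fatty acids to mitochondria, read 11.55, 11.31 and 11.45 on the chow arrays and 11.64, 11.35 and 11.47 on the high-fat diet arrays. The groups overlapped (0.05 ± 0.14, adjusted p = 0.862). Acads and Bdh1 had the smallest p of the mitochondrial list, at 0.48 ± 0.17, adjusted p = 0.121 and 0.72 ± 0.25, adjusted p = 0.122. In the peroxisomal list these were Abcd2, a transporter of very long fatty acyl-CoA (0.95 ± 0.24, adjusted p = 0.0532), and Crat, carnitine acetyltransferase (-0.55 ± 0.15, adjusted p = 0.0612). Of 9 Cyp4 fatty acid omega-hydroxylases, classical PPARα targets, 1 fell and none rose (median -0.31). Cyp4a31 read 10.31, 9.18 and 10.58 on the chow arrays and 8.33, 6.89 and 8.25 on the high-fat diet arrays, 4.59-fold lower (-2.20 ± 0.54, adjusted p = 0.0472), and passed in 1 of 6. Cyp4a14 was lower by 1.73 without passing (adjusted p = 0.159). The Cyp4a genes are close copies, so their probe sets may share signal. Of 18 genes handling polyunsaturated fatty acids and eicosanoids none passed (median 0.08); Fads1, the delta-5 desaturase, gave 0.72 ± 0.22, adjusted p = 0.091, and Ptges, a prostaglandin E synthase, -0.43 ± 0.15, adjusted p = 0.138. The other Fads1 probe set past the filter gave -0.06.

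The largest rise of all called genes was that of Cyp2b9, a cytochrome P450 with female-biased expression in mouse liver. It read 5.47, 3.95 and 6.35 on the chow arrays and 10.76, 9.85 and 10.73 on the high-fat diet arrays. All high-fat arrays lay far above the highest chow array, and the mean was 36.6-fold higher (5.19 ± 0.56, adjusted p = 0.000765; 6 of 6 leave-one-out fits). Its close relative Cyp2b13 read 4.76, 4.94 and 4.68 on the chow arrays and 9.36, 7.25 and 7.97 on the high-fat diet arrays (3.40 ± 0.65, adjusted p = 0.0181; 5 of 6 fits). The chow values of Cyp2b13 lay close together, while the high-fat values were spread widely. The signals of these similar genes, each read by 1 probe set, cannot be fully separated. Cyp2b10, the usual target of the receptor CAR, gave -0.17 (adjusted p = 0.489).

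Of 24 Cyp1, Cyp2 and Cyp3 genes, 5 rose and none fell, against 2.17% of all genes raised, while the median was 0.10. Besides the Cyp2b pair these were 3 Cyp2c genes, which oxidise drugs and arachidonic acid. Cyp2c38 read 8.05, 8.77 and 8.42 on the chow arrays and 9.94, 10.21 and 10.77 on the high-fat diet arrays (1.90 ± 0.25, adjusted p = 0.00311; 6 of 6 fits). Cyp2c39 read 8.91 to 9.69 on chow and 10.89 to 11.39 on high-fat diet (1.64 ± 0.28, adjusted p = 0.0116; 6 of 6 fits) and Cyp2c50 read 11.14 to 11.37 on chow and 11.58 to 11.94 on high-fat diet (0.54 ± 0.12, adjusted p = 0.0284; 2 of 6 fits). Other Cyp2c genes such as Cyp2c29 (0.24) and Cyp2c70 (0.02) did not pass. The Cyp2c genes are also close copies. Without HFD 1, 3 of the 24 genes passed as raised.

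Sex-biased liver genes were counted from lists of each kind. Of 14 female-biased genes, 4 rose (Cyp2b9, Cyp2b13, Hao2 and Cd36) and none fell (median 0.54), against 2.17% of all genes raised and 0.28% lowered. Of 21 male-biased genes none passed (median -0.30). With 1 of the 6 arrays left out the male-biased median ran from -0.48 to -0.001 and the female-biased median from 0.29 to 0.67. With the RNA integrity index as a covariate they were -0.15 and 0.48. Hao2, a peroxisomal hydroxyacid oxidase, read 3.67, 3.85 and 3.93 on the chow arrays and 9.07, 5.28 and 8.19 on the high-fat diet arrays. Chow arrays were near the floor of the scale and HFD 2 was well below the other high-fat arrays; the fit gave 3.69 ± 0.68, adjusted p = 0.0155, and Hao2 passed in 4 of 6 fits. Its chow mean of 3.82 lay under the cut of 4.01 that the filter on low signal set, so the gene was tested only because of its level in other arrays and the size of its rise has no firm base. Hao2 was the 1 of 50 named raised genes, and 1 of 7 of all 287 raised genes, with a chow mean under that cut; without it the raised genes number 3 among female-biased genes and 1 among flavin-dependent oxidases. The male-biased Ugt2b38 was lower on each high-fat array, 5.23, 7.12 and 7.16 against 8.38, 8.34 and 7.90, without passing (-1.70 ± 0.43, adjusted p = 0.0539), as was Serpina12, which encodes vaspin (-1.37 ± 0.43, adjusted p = 0.102). Of the 10 female-biased genes that did not pass, 4 were above 0, such as Abcd2 (0.95 ± 0.24, adjusted p = 0.0532) and Tox (0.52), and 6 below, such as Cux2 (-0.09) and Fmo2 (-0.49). Among 15 genes of growth hormone and IGF signalling, Ghr, the growth hormone receptor, rose, reading 12.39 to 12.72 on chow and 12.95 to 13.15 on high-fat diet (0.51 ± 0.11, adjusted p = 0.0252) and none fell; Stat5a gave 0.44 ± 0.18, adjusted p = 0.18. Ghr passed in 2 of 6 fits, and without HFD 1 the count of raised female-biased genes was 2.

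Other enzymes of redox and conjugation moved one by one. Of 9 flavin-dependent oxidases, Hao2 and Xdh rose; Xdh, xanthine dehydrogenase, read 7.71, 7.64 and 7.65 on the chow arrays and 9.43, 8.58 and 8.84 on the high-fat diet arrays (1.29 ± 0.24, adjusted p = 0.0153; 5 of 6 fits). Of 32 conjugation enzymes, Gstk1 (1.21 ± 0.26, adjusted p = 0.0278) and Mgst3 (1.45 ± 0.31, adjusted p = 0.0278), both glutathione transferases, rose and none fell (median 0.35). Of 9 xenobiotic receptors and electron donors, Cyb5b, cytochrome b5 of the outer mitochondrial membrane, rose, reading 9.16 to 9.54 on chow and 9.97 to 10.51 on high-fat diet (0.92 ± 0.14, adjusted p = 0.0071; 6 of 6 fits); Cyb5r3 gave 1.02 ± 0.36, adjusted p = 0.126. Of 20 NRF2 targets none passed (median 0.30), with Gstm2 at 2.05 ± 0.52, adjusted p = 0.0529 and Ugdh at 0.69 ± 0.18, adjusted p = 0.0539. Without chow 2 or HFD 3 no conjugation enzyme passed, without HFD 2 there were 4, and without HFD 1 no flavin-dependent oxidase passed.

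Pericentral hepatocyte genes, which lie around the central vein and depend on Wnt signals, had the most called members of any list. Of 18 tested, 6 rose and none fell (median 0.51), against 2.17% of all genes raised; of 14 periportal genes none passed (median -0.05). Lect2, a secreted chemotactic factor, read 10.14, 9.36 and 9.79 on the chow arrays and 11.88, 11.34 and 11.68 on the high-fat diet arrays (1.87 ± 0.21, adjusted p = 0.000765; 6 of 6 fits). Gulo, the last enzyme of vitamin C synthesis, read 10.38, 10.11 and 10.33 on the chow arrays and 11.26, 11.04 and 11.18 on the high-fat diet arrays. Its arrays lay close together in each group, and the rise was 1.85-fold (0.88 ± 0.10, adjusted p = 0.000765; 6 of 6 fits). Slc13a3, a sodium-coupled dicarboxylate carrier, read 6.42, 7.65 and 6.14 on the chow arrays and 8.76, 9.58 and 9.18 on the high-fat diet arrays (2.44 ± 0.42, adjusted p = 0.0122; 6 of 6 fits). Lgr5, the receptor for R-spondins, read 5.32 to 6.01 on chow and 6.34 to 6.87 on high-fat diet (0.91 ± 0.19, adjusted p = 0.024), though its other probe set was not higher. Glul, glutamine synthetase, read 11.87 to 12.03 on chow and 12.34 to 12.65 on high-fat diet (0.53 ± 0.12, adjusted p = 0.032), and Rgn, regucalcin, read 12.84 to 13.20 on chow and 13.41 to 13.59 on high-fat diet (0.49 ± 0.12, adjusted p = 0.0464). Lgr5 passed in 3 of 6, Glul in 1 of 6 and Rgn in 1 of 6 leave-one-out fits. Axin2, a direct Wnt target, gave -0.17 (adjusted p = 0.624), and Cyp2e1 0.16 (adjusted p = 0.227). In the periportal list the smallest p belonged to Ctsc (1.51 ± 0.52, adjusted p = 0.123) and Aldh1b1 (1.08 ± 0.38, adjusted p = 0.126). The number of raised pericentral genes ran from 3 (without chow 3, HFD 1 or HFD 3) to 6 (without chow 1).

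**Figure D5:**
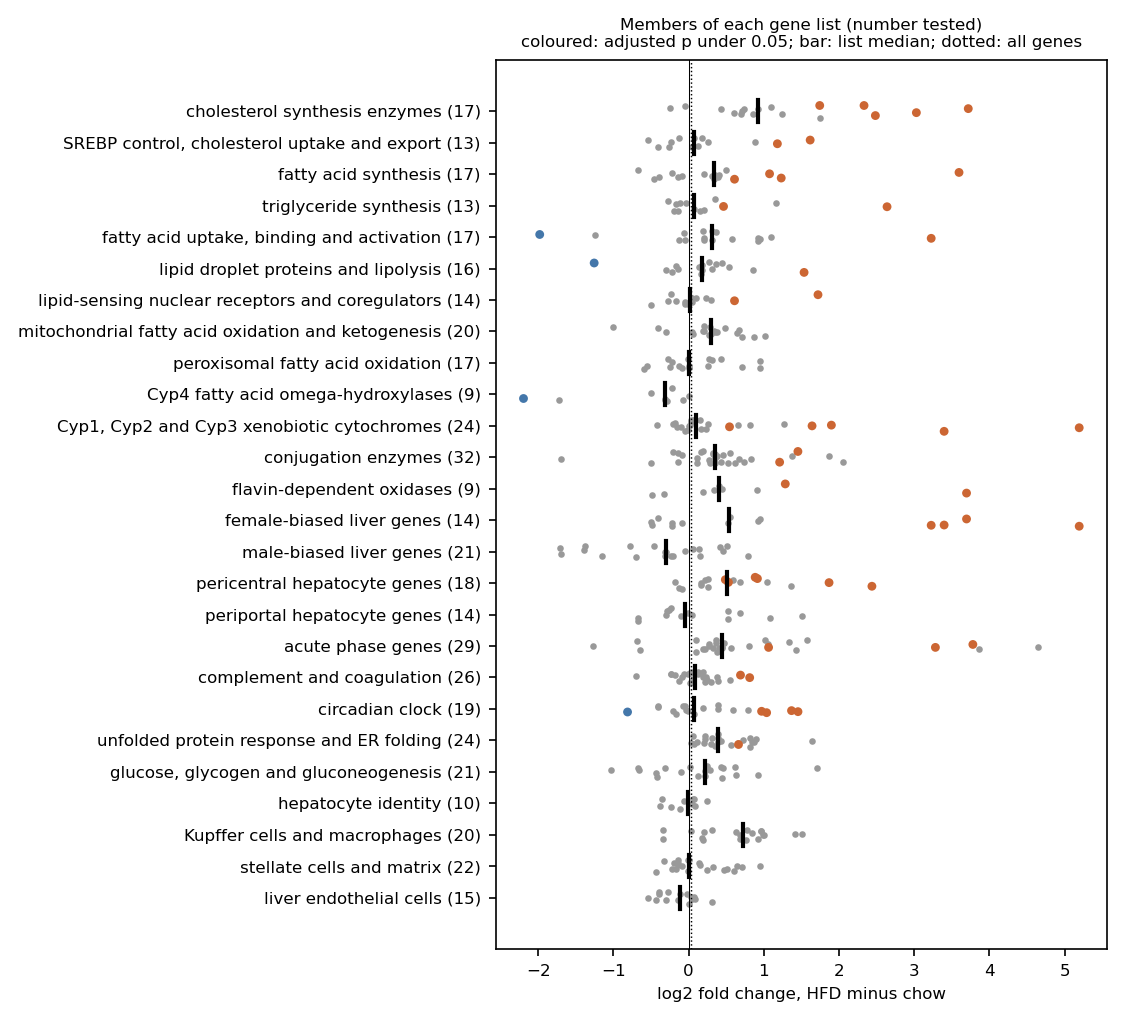
Each point is the log2 fold change (high-fat diet minus chow) of 1 member of a gene list; orange and blue mark members that rose or fell at an adjusted p under 0.05, the black bar is the list's median and the dotted line the median of all genes, 0.03. Cholesterol synthesis enzymes lie mostly to the right, with a median of 0.92, while hepatocyte identity genes centre on -0.01.

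Acute phase genes, whose products hepatocytes secrete in response to cytokines, mostly lay above 0. Of 29 tested, 3 rose and none fell, against 2.17% of all genes raised. Above 0 lay 26, and the median was 0.44. Under quantile and cyclic loess normalization the median was 0.25 and 0.27. Saa1, serum amyloid A1, read 9.60, 8.55 and 9.78 on the chow arrays and 12.73, 13.72 and 11.34 on the high-fat diet arrays. The high-fat values were spread widely, and the mean was 9.72-fold higher (3.28 ± 0.73, adjusted p = 0.0331; 2 of 6 fits). Orm2, an orosomucoid, read 5.74, 5.02 and 5.21 on the chow arrays and 9.88, 9.36 and 8.07 on the high-fat diet arrays, 13.7-fold higher (3.78 ± 0.86, adjusted p = 0.0356; 1 of 6 fits). Saa4, the constitutive form, was the steadiest, reading 11.67 to 12.22 on chow and 12.77 to 13.22 on high-fat diet (1.06 ± 0.18, adjusted p = 0.0121; 6 of 6 fits). Lcn2 and Saa2, singled out after their values were seen, were higher still and did not pass. Lcn2, lipocalin 2, read 4.63, 4.56 and 4.53 on the chow arrays and 10.23, 10.56 and 6.88 on the high-fat diet arrays (4.65 ± 1.18, adjusted p = 0.0539), and Saa2 7.32, 6.30 and 7.17 on the chow arrays and 11.11, 12.60 and 8.69 on the high-fat diet arrays (3.87 ± 1.01, adjusted p = 0.0593). HFD 3 was the lowest of the high-fat arrays for Saa1, Saa2 and Orm2, and without it 5 members of the list passed, against 1 without chow 2, chow 3, HFD 1 or HFD 2. Saa1 and Saa2 are near-identical copies, and the Orm genes are close copies of each other. Of 26 complement and coagulation genes, Cfb, complement factor B (0.69 ± 0.16, adjusted p = 0.0383), and Mbl2, a mannose-binding lectin (0.81 ± 0.19, adjusted p = 0.0386), rose and none fell (median 0.09); neither passed without chow 2 or any 1 high-fat array.

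Markers of the other cells of liver were read beside these. Fewer cells of a type and less RNA per cell cannot be told apart in whole tissue. None of 20 macrophage and Kupffer cell markers passed, but 18 were above 0, the median was 0.72, and their summed linear signal was 3126 to 4339 on chow against 4831 to 6797 on the high-fat diet, with no overlap. Adgre1, a defining gene of mouse macrophages, read 6.71, 4.77 and 5.70 on the chow arrays and 7.55, 6.66 and 7.47 on the high-fat diet arrays, with chow 1 above HFD 2 (1.50 ± 0.56, adjusted p = 0.146), and Ccr2, the monocyte chemokine receptor, gave -0.34 ± 0.15, adjusted p = 0.193. The other Ccr2 probe set past the filter was higher on the high-fat diet, by 0.41. The part of macrophages and Kupffer cells in the acute phase result was not tested. The summed markers of stellate cells and matrix (7883 to 11930 on chow, 9173 to 12090 on the high-fat diet) and of liver endothelial cells (3657 to 4465 against 3002 to 3714) overlapped. None of those 22 and 15 markers passed; the smallest p belonged to Col1a2 (0.61 ± 0.23, adjusted p = 0.147) and Col5a2 (0.52 ± 0.20, adjusted p = 0.159), and to Kdr (-0.43 ± 0.15, adjusted p = 0.119) and Stab2 (-0.39 ± 0.14, adjusted p = 0.138). No marker passed among 5 of cholangiocytes (median -0.05; smallest p for Krt19, -0.39 ± 0.12, adjusted p = 0.091) or 8 of neutrophils (median -0.11; Ngp, -0.30 ± 0.09, adjusted p = 0.0943). Of the 8 neutrophil markers 3 were above 0 and 5 below. The highest were S100a8, at 1.08 ± 0.47, adjusted p = 0.198, and S100a9, at 0.78, adjusted p = 0.242. None passed among 6 of red cells and platelets (median 0.00; Alas2, 0.74 ± 0.19, adjusted p = 0.0596) or 4 of adipocytes, of which 3 were above 0 (median 0.13; Car3, 0.10 ± 0.10, adjusted p = 0.541; Retn, -0.37 ± 0.14, adjusted p = 0.159). None passed among 7 of exocrine pancreas and gut, whose median was -0.65: Ctrb1, a chymotrypsinogen, gave -0.72 ± 0.34, adjusted p = 0.225, and Cela1, an elastase, was the 1 above 0 (1.79 ± 0.52, adjusted p = 0.0835). The summed linear signal did not overlap between diets for red cells and platelets, at 613 to 694 on chow and 761 to 1220 on the high-fat diet. Nor did it for exocrine pancreas and gut, at 345 to 1004 and 1146 to 1490. A linear sum follows its brightest members. In the exocrine list 6 of 7 members were lower, while Cela1, the brightest, had means of 8.34 on chow and 10.13 on the high-fat diet. In the red cell and platelet list 3 were higher and 3 lower, with Alas2 the brightest at 8.64 and 9.38. The part of either list in the results was not tested. Of 11 lymphocyte markers Themis, a T cell signalling protein, rose, reading 4.23 to 5.08 on chow and 6.49 to 6.98 on high-fat diet (2.08 ± 0.36, adjusted p = 0.0124; 6 of 6 fits), while Cd4 gave -0.15 ± 0.09, adjusted p = 0.318 and the list's median was -0.15. Lgals1, galectin-1, was the 1 gene to rise of 14 steatosis and injury genes: it read 7.57, 5.43 and 7.10 on the chow arrays and 9.47, 9.29 and 10.26 on the high-fat diet arrays, 7.85-fold higher (2.97 ± 0.49, adjusted p = 0.0105; 6 of 6 fits), and the list's median was 0.50. Anxa5 gave 1.44 ± 0.41, adjusted p = 0.0802. Of 22 interferon and antigen presentation genes 1 rose, Oasl1 (0.79 ± 0.19, adjusted p = 0.0426; 2 of 6 fits), with Psmb9 at 1.97 ± 0.64, adjusted p = 0.105.

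The circadian clock list moved in both directions. Of 19 genes, 4 rose and 1 fell, around a median of 0.07, against 2.17% of all genes raised and 0.28% lowered. Arntl, which encodes the activator BMAL1, read 5.75, 6.16 and 6.00 on the chow arrays and 5.39, 5.08 and 5.00 on the high-fat diet arrays and fell by 0.81 (adjusted p = 0.0153; 4 of 6 fits). Bhlhe40, a repressor of BMAL1 targets, read 7.49, 8.07 and 7.64 on the chow arrays and 9.28, 8.89 and 9.40 on the high-fat diet arrays, 2.74-fold higher (1.45 ± 0.21, adjusted p = 0.00569; 6 of 6 fits). Ciart, another repressor of CLOCK and BMAL1, read 5.23, 5.38 and 5.44 on the chow arrays and 6.54, 5.99 and 6.63 on the high-fat diet arrays (1.04 ± 0.16, adjusted p = 0.00751; 6 of 6 fits). Dbp, a transcription factor driven by the clock, read 8.77 to 10.44 on chow and 10.75 to 11.31 on high-fat diet (1.37 ± 0.31, adjusted p = 0.0373; 1 of 6 fits) and Usp2, a deubiquitinase with a daily rhythm, read 7.53 to 7.97 on chow and 8.34 to 9.16 on high-fat diet (0.97 ± 0.22, adjusted p = 0.0383; 2 of 6 fits). Per2 gave 0.79 (adjusted p = 0.127) and Nr1d1 0.20 (adjusted p = 0.588). Without chow 2, HFD 1 or HFD 3 the count of raised clock genes was 2. The labels give no time of day for any sample.

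CLOCK and BMAL1 bind the E-box CACGTG, and the RefSeq window of Ciart (GRCm38.p6, the 250 bases before the start) is shown because it holds 3 of them, in capitals.
Ciart, chr3:95882229-95882478, minus strand: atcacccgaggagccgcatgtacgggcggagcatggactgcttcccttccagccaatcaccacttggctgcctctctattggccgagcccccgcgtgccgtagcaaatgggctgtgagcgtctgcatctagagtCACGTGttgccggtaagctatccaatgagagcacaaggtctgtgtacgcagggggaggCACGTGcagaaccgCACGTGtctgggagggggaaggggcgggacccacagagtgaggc
The matches began at -116, -58 and -44; the motif reads the same on both strands. Of 17 clock genes with a window, 5 held the motif in at least 1 window (Per1, Cry1, Tef, Ciart and Bhlhe41). Over all windows the share was 6.02%, counted by window and not by gene. Of these 5 genes Ciart alone passed the test.

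Folding and energy genes mostly lay above 0 without passing. Of 24 genes of the unfolded protein response and endoplasmic reticulum folding, all were above 0 (median 0.39) but 1 passed: Canx, the chaperone calnexin, at 0.66 ± 0.15, adjusted p = 0.0338; P4hb gave 0.43 ± 0.13, adjusted p = 0.0991. None of 72 respiratory chain and ATP synthase genes passed, 65 were above 0 and the median was 0.28; Atp5b read 12.09, 11.64 and 12.14 on the chow arrays and 12.57, 12.39 and 12.48 on the high-fat diet arrays (0.52 ± 0.13, adjusted p = 0.0541) and Ndufa9 gave 0.66 ± 0.17, adjusted p = 0.0598. Of 38 proteasome genes Psmd14 rose (0.63 ± 0.15, adjusted p = 0.0386; 0 of 6 fits), 34 were above 0 and the median was 0.42; Psmd10 gave 1.31 ± 0.40, adjusted p = 0.097. None of 40 ribosomal protein genes passed (median 0.06), with Rpl35 at -0.38 ± 0.12, adjusted p = 0.0902 and Rpl13a at -0.26 ± 0.10, adjusted p = 0.176. Of all genes, 54.9% were above 0. Under quantile and cyclic loess normalization the medians were 0.24 and 0.23 for folding and 0.12 and 0.09 for the respiratory chain. For the proteasome they were 0.21 and 0.26. The median of all genes was -0.01 and 0.01 under these settings, and 0.10 with the lowest 60% of probe sets dropped.

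No gene of several central metabolic lists passed. In 21 glucose, glycogen and gluconeogenesis genes (median 0.22), Pck1, the gluconeogenic PEP carboxykinase, read 12.38, 11.67 and 12.20 on the chow arrays and 12.05, 11.27 and 10.89 on the high-fat diet arrays (-0.68 ± 0.28, adjusted p = 0.186). G6pc, glucose 6-phosphatase, was lower on all 3 high-fat arrays, 9.09, 9.96 and 9.99 against 10.31, 11.36 and 10.45, without passing (-1.03 ± 0.39, adjusted p = 0.154). Pfkfb2 (-0.65 ± 0.18, adjusted p = 0.0628) and the glycogen branching enzyme Gbe1 (1.71 ± 0.49, adjusted p = 0.0791) had the smallest p of that list. The same held for 15 insulin and adiponectin signalling genes (Irs2, -0.84 ± 0.32, adjusted p = 0.152; Pdk1, 0.80 ± 0.27, adjusted p = 0.121), 22 bile acid genes (Akr1d1, 0.42 ± 0.14, adjusted p = 0.108; Klb, -0.50 ± 0.18, adjusted p = 0.126) and 18 apolipoprotein genes (Apoa5, -0.28 ± 0.13, adjusted p = 0.207; Apoh, 0.24 ± 0.11, adjusted p = 0.218). It also held for 15 integrated stress response genes (Atf5, -0.75 ± 0.29, adjusted p = 0.161) and 15 drug and anion transporters (Slc16a1, -0.57 ± 0.19, adjusted p = 0.105). None of 16 cell cycle genes passed, 4 of them below 0 (Gadd45a, 1.41 ± 0.41, adjusted p = 0.0806, and Ccnd1, 1.35 ± 0.46, adjusted p = 0.118). None passed among 14 genes of the glucocorticoid receptor, encoded by Nr3c1, and genes it induces (median -0.24). Nr3c1 gave 0.83 ± 0.31, adjusted p = 0.144, and Gadd45b -0.67 ± 0.25, adjusted p = 0.142. The other probe sets past the filter gave -1.35 and 0.09 for Gadd45b, and -0.27 and -0.25 for Pdk1. Of 22 amino acid and one-carbon genes Sardh, sarcosine dehydrogenase, rose (0.76 ± 0.15, adjusted p = 0.0215; 3 of 6 fits).

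The named genes with the largest rises that belong to none of these lists were Tmem14a and A2ml1. Tmem14a read 5.09, 5.34 and 4.20 on the chow arrays and 7.89, 6.84 and 7.49 on the high-fat diet arrays (2.53 ± 0.39, adjusted p = 0.0071; 6 of 6 fits), and A2ml1, a protease inhibitor related to alpha-2-macroglobulin, 5.76, 7.83 and 6.22 on the chow arrays and 9.13, 9.14 and 8.57 on the high-fat diet arrays (2.34 ± 0.45, adjusted p = 0.0184; 3 of 6 fits). Among the lowered genes Fmn2, an actin nucleator, read 8.74, 8.44 and 8.98 on the chow arrays and 6.47, 6.82 and 6.83 on the high-fat diet arrays. All high-fat arrays lay well below the chow arrays, and Fmn2 fell by 2.02 (adjusted p = 0.0201; 3 of 6 fits). Ctcflos, a noncoding transcript, read 5.71, 8.04 and 7.09 on the chow arrays and 4.63, 5.15 and 4.64 on the high-fat diet arrays and fell by 2.14 (adjusted p = 0.0221; 2 of 6 fits). Id4, a helix-loop-helix inhibitor, was the 1 lowered gene to pass in all 6 leave-one-out fits, at 5.86, 6.34 and 5.83 on the chow arrays and 5.04, 5.36 and 5.13 on the high-fat diet arrays (-0.83 ± 0.13, adjusted p = 0.00747). Chkb, choline kinase beta, read 9.77, 10.01 and 9.94 on the chow arrays and 9.07, 9.06 and 9.30 on the high-fat diet arrays (-0.76 ± 0.17, adjusted p = 0.0367; 1 of 6 fits). Falls were also called for Zfp707 (-1.10), Tsks (-0.95), Ganc (-0.93), Nrbp2 (-0.85), Usp6nl (-0.81), Chrna2 (-0.76) and Rusc2 (-0.73). These 7 passed in between 1 and 3 of the leave-one-out fits.

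The prevention model offers the same diet contrast after 4 weeks of diet, on other arrays, with vehicle given for 1 week before. There 737 genes passed (5.57%), of which 230 rose (1.74%) and 507 fell (3.83%). Of the 287 genes raised in the reversal model, 24 also rose there, 8.36% of the reversal and 10.4% of the prevention genes. Of the 37 lowered, 3 also fell (Fmn2, Chrna2 and Atrn, the last named after its values were seen), 8.11% and 0.592%. The shared risers include Cyp2b9, Cyp2b13, Cyp2c38, Cyp2c39, Cd36, Mogat1, Lgals1, Slc13a3, Saa4 and Themis. In the prevention model Cyp2b9 changed by 3.68 (adjusted p = 0.0105), Cyp2b13 by 3.35 (adjusted p = 0.0178), Cd36 by 2.25 (adjusted p = 0.0291) and Mogat1 by 1.59 (adjusted p = 0.0157). The difference between models did not pass for Cyp2b9, 1.52 (adjusted p = 0.207), for Cd36, 0.98 (adjusted p = 0.372), or for Mogat1, 1.05 (adjusted p = 0.102). Another 9 genes passed in both models with opposite signs, all higher in the reversal and lower in the prevention model.

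The difference of the diet effect, reversal minus prevention, passed for 1453 genes, 11% of those tested (1169 positive, 8.84%, and 284 negative, 2.15%), among them 180 of the 324 genes called here. It passed for 6 of the 17 cholesterol synthesis enzymes, all more positive in the reversal model. In the prevention model none of the 17 passed (median 0.11); Msmo1 changed there by -0.95 (adjusted p = 0.423) and differed by 4.66 (adjusted p = 0.0202). Pparg changed there by 0.63 (adjusted p = 0.051) and differed by 1.09 (adjusted p = 0.0256); Thrsp by 1.14 (adjusted p = 0.0977) and 2.45 (adjusted p = 0.0256). The clock genes Bhlhe40, -0.65 (adjusted p = 0.0843), and Arntl, 0.42 (adjusted p = 0.107), did not pass there and differed by 2.10 (adjusted p = 0.0163) and -1.23 (adjusted p = 0.0173). Cpt1a fell in the prevention model, -0.96 (adjusted p = 0.00931), and its difference was 1.01 (adjusted p = 0.0183). The count of differences changed with the RNA integrity index in the fit and when single arrays were left out; in the prevention arrays the index did not overlap between diets, so index and diet cannot be told apart there. The RNA integrity index was 1.43 ± 0.512 on prevention chow and 2.84 ± 0.303 on prevention high-fat arrays (SD, n = 3; exact two-sided permutation p = 0.1, the smallest possible), and with it as a covariate none of the 1453 passed (smallest adjusted p = 0.0522, 1709 genes at an unadjusted p under 0.05). Without prevention chow 1 none passed either (3250 at an unadjusted p under 0.05), without prevention chow 3 there were 35, and without HFD 1 of the reversal model 55.

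The 3 arrays of high-fat diet with CMPF at 6 mg per kg per day give a further reading of the same genes, set here beside the chow and vehicle values with no test. Cyp2b9 read 6.69, 6.65 and 8.28 there, each below the lowest vehicle array and above the highest chow array. Cd36 read 6.94, 6.60 and 8.10, Pparg 5.93, 5.55 and 5.98 and Mogat1 4.58, 4.44 and 4.83. Msmo1 read 10.61, 9.83 and 11.29 and Saa1 14.04, 13.26 and 13.47. Arntl read 5.25, 5.14 and 5.18 and Bhlhe40 9.42, 9.36 and 9.99.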

How the data were processed

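Total liver RNA of 18 samples was hybridised to Affymetrix mouse arrays; the values used here are the log2 signals deposited by the authors, made with Affymetrix Expression Console 1.1 and RMA per the submitters' processing notes. The annotation named 1 gene for 34945 of 45101 probe sets, several for 932 and none for 9160. The dimmest 40% of probe sets were dropped and each gene was read from its brightest probe set, which left 13221 genes. One limma model (limma 3.58.1, R 4.3.3) of the 6 group means was fitted on 17 samples, with replicates 2 and 3 of the prevention CMPF group averaged because none of their genes differed by over 2-fold; eBayes shared the spread, on 11 residual degrees of freedom, and p-values were Benjamini-Hochberg adjusted over all genes. No array entered as a batch: scan dates were not given in the sources used here. The mean log2 signal over all probe sets was 5.08 to 5.10 on the prevention arrays and 5.25 to 5.26 on the reversal arrays. The models share no arrays, so model and set of arrays cannot be told apart in the difference between models. Leave-one-out fits, other filters, normalizations, a replicate block and an RNA integrity covariate were tried. Number of arrays, 3 a group, limits precision.

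The gene lists, the named genes and the tests were chosen with earlier results of these data known. Named are the 15 genes per direction with the largest fold changes among called genes whose groups do not overlap, up to 8 called members of each list described (the smallest p where fewer than 2 passed), a set of 12 metabolic genes, and 8 genes per direction for the difference between models; predicted genes and clone names entered the tests and are left unnamed. Promoter windows come from RefSeq, GRCm38.p6.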

Additional observations from a re-analysis of the deposited data

Results flagged for a closer look

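The diet effect differed between the reversal and the prevention model for 1453 genes by a test of the difference itself, in limma. With the RNA integrity index as a covariate the count was 0, and without prevention chow 1 it was also 0, so the values below are given as measured; the part of RNA integrity in them was not tested further. All are reversal minus prevention on the log2 scale.

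In sterol and fat metabolism the differences were 4.66 for Msmo1, 3.03 for Fdps, 2.60 for Cyp51, 1.63 for Nsdhl, 2.12 for Stard4, 2.45 for Thrsp, 1.43 for Aacs and 1.09 for Pparg, and -1.59 for the droplet protein Plin5. In the clock they were 2.10 for Bhlhe40, 1.18 for Ciart, 2.28 for Dbp and -1.23 for Arntl.

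Among other enzymes, receptors and secreted proteins they were 1.43 for Xdh, 0.77 for Cyb5b, 0.579 for Ghr, 0.748 for Gulo, 1.25 for Lect2, 0.991 for Cfb, 1.03 for Oasl1, 1.06 for Canx and 0.969 for Psmd14. Tmem14a differed by 2.67. Genes lowered in the reversal model had -2.62 for Ctcflos, -1.58 for Tsks, -1.12 for Id4, -0.747 for Usp6nl, -1.13 for Chkb and -1.03 for Rusc2.

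The remaining genes with the largest differences did not pass in the reversal model alone. They were 3.21 for Gsdme, a gasdermin, 3.03 for Prr16, 2.92 for Tuft1, 2.82 for Scfd1 and 2.68 for Fkbp11. In the other direction were -2.52 for Ppbp, a platelet chemokine, -2.29 for Chka, choline kinase alpha, -2.23 for Pdk4, which inhibits pyruvate dehydrogenase, -2.13 for Mfsd2a, -2.12 for Rmnd1, -2.10 for Snx6 and -2.03 for Ankrd33b. With the index as a covariate Gsdme went to 1.11 and Chka to -0.78, while Tuft1 (2.98) and Pdk4 (-2.30) stayed near their values; the adjusted p of all 16 genes chosen for this difference was then at least 0.152.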

How the results depend on the processing

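No named called gene reversed its direction under any of the settings tried. For the leave-one-out fits this was fixed in advance, since the groups of all 324 called genes did not overlap. It was also fixed for fits that changed only the other samples or the prior, which leave the 2 group means as they are. Of the 65 named called genes, 14 passed in the fit of the 9 reversal arrays and 0 in that of the 6 arrays. The number was 49 after quantile normalization, 51 after cyclic loess and 59 with the RNA integrity index. The called, raised and lowered counts of 324, 287 and 37 became 38, 36 and 2 with the 9 arrays and 0, 0 and 0 with the 6. These fits have fewer degrees of freedom and also take the spread from fewer arrays. The part of each in the lower counts was not tested. Raised genes numbered 155 and lowered ones 86 with quantile normalization and 187 and 76 with cyclic loess, and 62 were lowered when all 18 arrays counted; the cause was not tested. Leaving out 1 array gave 99 to 577 called, 95 to 496 raised and 4 to 81 lowered genes. The 1453 differences between models became 0 with the index as a covariate and ranged from 0 to 2400 when 1 array was left out. Other filters, the mean of probe sets and a trended prior kept each count within 1.5 times.

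Deviations of same-numbered chow and high-fat arrays correlated at 0.341, 0.104 and -0.0878, and those of differently numbered arrays at -0.292 to 0.173. So few values cannot settle whether the replicate numbers mark a pairing. With the replicate block 256 genes were called, 236 raised and 20 lowered, and 1387 differed between models. For signal near background, 307 genes were called with no filter on low probe sets and 308 with the lowest 60% dropped. No called gene had both group means under the filter cut of 4.01. Beyond this, signal near background was not tested.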

Other observations

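Several genes outside the lists, chosen after their values were seen, had some of the smallest p-values. Nt5e, which encodes the ecto-5′-nucleotidase CD73, read 5.87, 6.06 and 6.20 on the chow arrays and 8.04, 7.87 and 8.47 on the high-fat diet arrays; it had the smallest adjusted p of the comparison (2.08 ± 0.19, adjusted p = 0.000429) and passed in 6 of 6 leave-one-out fits. Exoc4, a subunit of the exocyst, read 6.94, 6.19 and 6.77 on the chow arrays and 8.36, 8.04 and 8.14 on the high-fat diet arrays (1.55 ± 0.19, adjusted p = 0.00162), and Idh2, the mitochondrial NADP isocitrate dehydrogenase, 8.36, 7.85 and 8.39 on the chow arrays and 9.21, 9.04 and 9.37 on the high-fat diet arrays (1.01 ± 0.13, adjusted p = 0.0033). Gstm5, a glutathione transferase, read 7.06, 6.34 and 6.86 on the chow arrays and 8.34, 8.15 and 8.14 on the high-fat diet arrays (1.46 ± 0.20, adjusted p = 0.00425). Tmem97, a sterol-regulated membrane protein, read 6.82, 7.23 and 6.81 on the chow arrays and 8.21, 7.95 and 8.33 on the high-fat diet arrays (1.21 ± 0.19, adjusted p = 0.0071). Each of these 5 passed in 6 of 6 leave-one-out fits.

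Among the lowered genes, also chosen after their values were seen, Lepr, the leptin receptor, read 6.42, 6.19 and 6.41 on the chow arrays and 5.81, 5.78 and 5.90 on the high-fat diet arrays and fell by 0.51 (adjusted p = 0.0221). Bmp2, a hepatic signal of iron loading, read 9.05, 9.08 and 9.43 on the chow arrays and 8.62, 8.69 and 8.30 on the high-fat diet arrays and fell by 0.65 (adjusted p = 0.0491). Lepr passed in 3 of 6 and Bmp2 in 1 of 6 of the leave-one-out fits.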
